A study of Mus musculus with 2 samples.

Results

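Of the open chromatin intervals of mouse regulatory T cells, 803 had their summit far from genes' starts and inside sequence that the reference genome marks as repeated. They were chosen by position and reference sequence alone. Each of the 34610 distinct intervals of the list of reproducible peaks was represented by its summit of highest signal. A peak was kept when that summit lay more than 1 kb from every annotated transcription start site (TSS) and more than 100 of the 200 bases around it were lower case in the soft-masked genome. The 803 members made up 2.32% of all peaks and 3.84% (exact 95% interval 3.58 to 4.11%) of the 20919 distal peaks. The 20116 other distal peaks served for comparison.

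The assay was ATAC-seq, in which the Tn5 transposase inserts sequencing adapters into accessible DNA. Both libraries were technical replicates of 1 biological replicate, regulatory T cells labelled as primary cells that originate from bone marrow haematopoietic cells. The animal was an adult male aged 4 months of the strain Foxp3CreERT2 x Rosa26YFP, which carries an inducible Cre at Foxp3, the gene of the factor that defines regulatory T cells, and a YFP gene at Rosa26. The authors called peaks on an alignment that the libraries share, so there was 1 group, 1 value per peak, no spread between replicates and no test. Intervals given here cover counting error only, and neighbouring or related peaks are not independent. All 9 regulatory T cell markers and all 8 T cell markers had a peak within 20 kb. So did 9 of 10 B cell, 7 of 11 myeloid, 7 of 10 erythroid and megakaryocyte, 7 of 10 natural killer and 3 of 10 hepatocyte markers, whose part in the results was not tested. The share of all genes with such a peak was not counted, so these numbers alone do not identify the cell type.

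Much of a mammalian genome descends from transposable elements, which copied themselves to many places and then decayed by mutation. Short interspersed elements (SINEs) are copied through RNA made by RNA polymerase III. The mouse B1 family derives from 7SL RNA, the RNA of the signal recognition particle. Simple tandem repeats, by contrast, arise when a short unit is duplicated in place. Some repeats carry sites for transcription factors. The mouse B2 SINE is known for spreading sites of CTCF, the zinc finger protein that anchors chromatin loops and insulators. Families of ETS and RUNX factors bind many lymphocyte enhancers, and Foxp3 is known to bind microsatellites made of T runs broken by a G.

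The sequences below show what the members share. They are 200-base windows of GRCm38, the assembly also called mm10, centred on the summit and read from the plus strand. The first trio come from the groups of related members that most often held a short CTCF core, the 7 letters AGAGGGC or AGGGGGC, which is in capitals on either strand. One lay in an intron of Themis, a regulator of T cell receptor signalling in thymocytes, and the others in introns of Acer2, a ceramidase, and Desi2.
Group 1, Themis, chr10:28730222-28730421: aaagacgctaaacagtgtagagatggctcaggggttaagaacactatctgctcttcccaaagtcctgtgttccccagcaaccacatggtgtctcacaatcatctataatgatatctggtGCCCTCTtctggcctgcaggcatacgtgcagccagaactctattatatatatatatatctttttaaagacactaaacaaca
Group 2, Acer2, chr4:86884995-86885194: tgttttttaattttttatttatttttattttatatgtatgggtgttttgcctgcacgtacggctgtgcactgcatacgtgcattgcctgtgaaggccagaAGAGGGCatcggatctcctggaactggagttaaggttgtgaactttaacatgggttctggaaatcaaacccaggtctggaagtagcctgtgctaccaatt
Group 5, Desi2, chr1:178242231-178242430: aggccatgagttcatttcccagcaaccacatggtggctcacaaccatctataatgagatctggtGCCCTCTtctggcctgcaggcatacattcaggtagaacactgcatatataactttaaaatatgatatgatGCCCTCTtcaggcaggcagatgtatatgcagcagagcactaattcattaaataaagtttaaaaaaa
The next window, between genes and nearest to Abi1, an actin regulator, represents a group with ETS sites. AGGAAGT is in capitals.
Group 3, near Abi1, chr2:23048072-23048271: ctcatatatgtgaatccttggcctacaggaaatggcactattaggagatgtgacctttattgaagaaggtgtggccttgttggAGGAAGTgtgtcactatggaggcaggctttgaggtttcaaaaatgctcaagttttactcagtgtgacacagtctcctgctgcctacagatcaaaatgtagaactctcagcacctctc
The window nearest to Art2b, a gene of an ADP-ribosyltransferase on T cells, represents a group that is similar to the B1 SINE. It holds a run of GGTTTT before the B1-like part and has no capitals.
Group 4, near Art2b, chr7:101613245-101613444: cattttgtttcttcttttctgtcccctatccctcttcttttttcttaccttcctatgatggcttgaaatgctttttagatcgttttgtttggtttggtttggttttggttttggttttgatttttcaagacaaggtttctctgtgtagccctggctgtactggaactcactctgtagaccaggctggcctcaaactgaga
The last 4 windows hold the strongest members with an ETS, RUNX or CTCF match and the longest tandem repeat. Their capitals mark, in this order, AGGAAGT, the RUNX site as it reads on the printed strand, the longer CTCF consensus and a repeat of the unit AAAACC.
ETS, near Creb3l2, chr6:37481206-37481405: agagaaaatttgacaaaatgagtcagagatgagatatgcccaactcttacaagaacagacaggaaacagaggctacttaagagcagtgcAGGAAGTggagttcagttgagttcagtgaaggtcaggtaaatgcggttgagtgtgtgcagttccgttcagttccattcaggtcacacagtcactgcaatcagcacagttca
RUNX, near Gimap3, chr6:48802002-48802201: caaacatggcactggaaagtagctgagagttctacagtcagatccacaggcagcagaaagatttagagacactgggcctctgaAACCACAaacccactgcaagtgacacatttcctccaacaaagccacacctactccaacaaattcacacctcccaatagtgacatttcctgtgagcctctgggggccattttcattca
CTCF, near Cnot2, chr10:116613324-116613523: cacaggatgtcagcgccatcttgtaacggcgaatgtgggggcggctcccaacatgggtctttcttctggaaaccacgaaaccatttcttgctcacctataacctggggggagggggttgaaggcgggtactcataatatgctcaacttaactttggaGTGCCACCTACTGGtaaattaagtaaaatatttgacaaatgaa
Repeat, near Ccne1, chr7:38124266-38124465: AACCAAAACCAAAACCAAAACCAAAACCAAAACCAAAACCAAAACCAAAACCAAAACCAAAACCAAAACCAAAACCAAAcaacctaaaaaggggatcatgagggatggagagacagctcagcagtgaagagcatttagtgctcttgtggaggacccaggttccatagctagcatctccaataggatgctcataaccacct

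Repeat-masked sequence was scarce at distal summits. In the reference, 31.3% of 248741 evenly spaced distal windows were more than 50% lower case, against 3.84% of distal peaks. One kb to either side of the distal summits the share was 18.9%. At promoter peaks, those within 1 kb of a TSS, it was 0.920% (126 of 13691). Around the other distal summits, lower-case bases fell from 25.5% at 990 bp to 7.75% just beside the summit. Part of this fall is fixed, because the rule had taken out the peaks with more than 50% lower case there. Promoter peaks, which were not chosen by masking, went from 21.8% to 5.15% over the same distance.

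**Figure D1:**
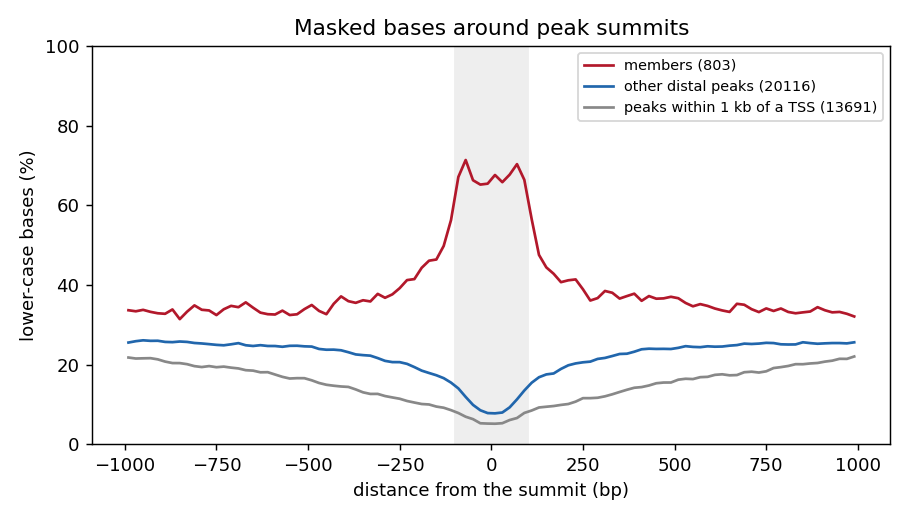
Share of lower-case bases in 20 bp steps by distance from the summit, for the 803 members, the 20116 other distal peaks and the 13691 peaks near a TSS; the grey band is the 200 bp window that chose the members. The members rise inside the band because they were chosen there, and the other distal peaks are lowered there by the same rule. The lines of the other distal peaks and of the peaks near a TSS are lowest at the summit.

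Most members were only partly masked. They had a median of 65% of their window in lower case, 57 had over 90%, and 13 were entirely lower case. The summit base itself was lower case in 532 of them (66.3%), and over the whole called interval 465 stayed above 50%. Their flanks were also more often masked: 27.0% (24.9 to 29.3%) of windows 1 kb away, against 18.6% (18.2 to 18.96%) for the other distal peaks. The 84 members with 101 to 105 lower-case bases had a median signal of 12.3, and the 120 peaks that fell just short, with 96 to 100, had 10.3.

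The label held in the sequence itself. In members a median of 78.5% of the 24-base words of the window occurred once in the genome, against 100% in other distal peaks. The median 16-base word of a member had 8 copies, against 3. The members were nevertheless the less repeated part of masked sequence. At least 50% of the words were found once in 90.04% of the members, but in 36.7% of masked windows of the distal grid, and 26.6% of those grid windows had no word found once, against 10 of 803 members (1.25%).

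At each level of uniqueness, masked windows were fewer at distal peaks than in the grid. Where 50 to 75% of the words were found once, 47.2% (42.9 to 51.6%) of 523 peaks and 74.0% (73.4 to 74.6%) of 19837 grid windows were masked. Where 90% or more but not all were found once, the shares were 4.81% and 11.5%, and where all were found once, 0.0817% and 0.719%. Below 50%, they were 23.9% and 89.3%. How the authors treated reads that align to several places is not given in the sources used here, and its part in these shares was not tested. Kept to windows with at least 90% of words found once, 153 members remained, 0.813% of such distal peaks.

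**Figure D2:**
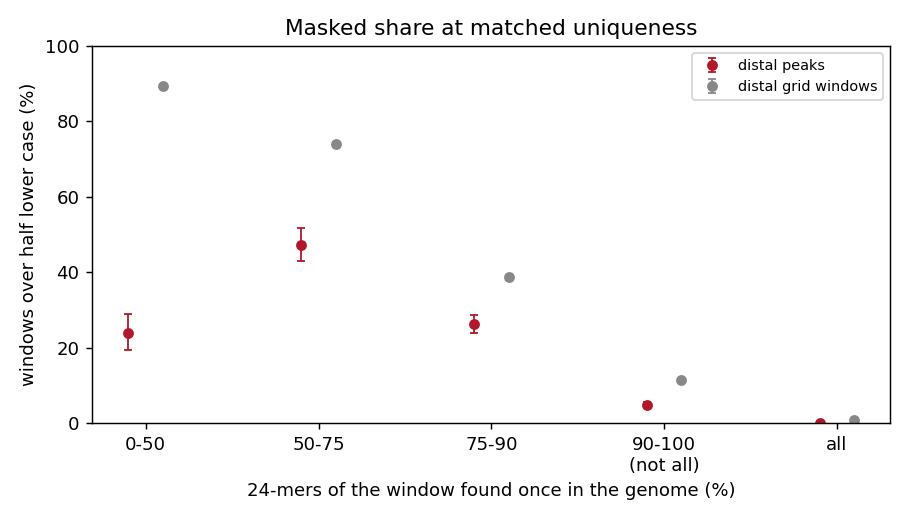
Share of windows over 50% lower case, with exact 95% intervals, in classes of the share of 24-base words found once in the genome, for distal peaks and for distal grid windows. The peaks lie below the grid in all 5 classes, at 23.9% against 89.3% in the most repeated class.

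The members were somewhat weaker than other distal peaks by the authors' enrichment signal. Their median signal was 10.7 (10.3 to 11.1), with quartiles of 7.97 and 14.4 and a range of 1.86 to 31.7. The other distal peaks had a median of 12.1 (12.02 to 12.25). The median −log10 p was 60.8 against 85.1. Members formed 6.05% of the first quartile of distal peaks by −log10 p and 1.93% of the last. They were narrower, with a median of 458 bp against 566 bp, and 33.6% listed more than 1 summit against 44.0%. Among intervals under 400 bp the order was not kept, with a median signal of 8.97 (8.35 to 9.39) in members and 8.35 (8.27 to 8.56) in others. From 400 to 800 bp it was 11.8 and 13.1.

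Of the members, 797 (99.3%) overlapped a peak of the longer list called on pseudoreplicates, against 99.9% of other distal peaks. Both sets came from the list of reproducible peaks, and the longer list was called on the same alignment. This overlap therefore cannot show whether reproducibility differed. The median −log10 of the irreproducible discovery rate (IDR) was 2.29 (2.24 to 2.35) against 2.61 (2.59 to 2.62), where a higher value means a more reproducible rank. Among ranked distal intervals that did not reach the authors' IDR threshold, 7.72% were in masked sequence.

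Members lay in introns as often as other distal peaks did, at 53.9% (50.4 to 57.4%) and 54.0%. Exons held 18 members (2.24%, 1.33 to 3.52%) against 5.63% of the others, and 43.8% were intergenic against 40.4%. Masked grid windows were 30.4% intronic and 68.6% intergenic. The share of distal peaks that were members was 6.85% (30 of 438, 4.67 to 9.63%) on chromosome X and 3.77% (3.51 to 4.04%) on the autosomes, which ranged from 2.90% on chromosome 17 to 4.63% on chromosome 4. Member windows held a median of 46% G and C and 1 CpG, against 48.5% and 3 CpGs in the others. No CpG was present in 22.9% of members and in 8.42% of the others.

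The strongest members reached the top of the distal list. The highest signal, 31.7, belonged to the intergenic peak at chr6:37481013-37481714 nearest to Creb3l2, a stress-responsive transcription factor. It exceeded 99.8% of distal peaks and held ETS and AP-1 matches. The second, 31.1 at chr10:116613116-116613784, was nearest to Cnot2, a subunit of the CCR4-NOT deadenylase, and held the longer CTCF consensus and a YY1 match. The third, 29.6 at chr6:48801907-48802310, was nearest to Gimap3, one of the GTPases of lymphocyte survival, and held RUNX and T-box matches. These 3 are among the windows printed above.

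The other 7 of the 10 strongest ranged from 28.9 down to 25.8. They were nearest to Kat6a, a histone acetyltransferase, Mbnl1, a splicing regulator, and Spen, a transcriptional repressor, or lay within introns of Eaf2, Depdc1b, Nup43, a nuclear pore subunit, and Blvra, a biliverdin reductase. The peaks near Gimap3 and Mbnl1 belonged to group 3 and the peak in Eaf2 to group 1. Counting ETS, RUNX, CTCF and the short CTCF core, 9 of the 10 windows held at least 1 match (55.5 to 99.75%), with Depdc1b the exception. With AP-1 added to these patterns, the share was 61.1% of all members and 57.5% of other distal peaks, which that wide interval holds.

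Members were rare at genes known for T cells, as they were among all distal peaks. Within 20 kb of 22 regulatory T cell signature genes, 6 of 131 distal peaks were members (4.58%, 1.70 to 9.70%), an interval that holds the 3.84% of all distal peaks. The strongest was near Itgae, the integrin CD103, with a signal of 17.7 at chr11:73071764-73072307, in an intron of the neighbour Ncbp3. The next lay by Ikzf4, the gene of Eos, at 16.4, and by Entpd1, the ectonucleotidase CD39, at 15.02 and 13.2. This second Entpd1 peak and the last 2 were named after their values were seen. The last 2 were intronic in Nt5e, the ectonucleotidase CD73, at 10.95 and in Ctla4, the inhibitory receptor, at 4.76. The Ctla4 peak at chr1:60888918-60889194 was in the weakest 5.03% of distal peaks and held a RUNX match.

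Of 146 distal peaks at T cell identity genes, 3 were members (2.06%, 0.426 to 5.89%). They were the Themis intron printed above, with a signal of 20.9, and weaker peaks at the costimulatory receptor Cd28, 5.78, and at the adhesion receptor Cd2, 4.76. Activation genes had 1 of 52, by Nr4a2, and effector genes 1 of 69, by the growth factor gene Areg. Resting and homing genes had 2 of 112, by Foxo1 and S1pr1, which direct homing and egress. Cytokine and chemokine receptor genes had 0 of 95, which allows up to 3.81%. Among genes of other blood cells, members were 1 of 12 distal peaks at B cell genes, by Cd79a, 1 of 20 at natural killer genes, by Klrb1c, and 0 of 15 at myeloid genes.

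Most members resembled another. By alignment of the windows (at least 80 bases at 70% identity), 455 of 803 members (56.7%) were like at least 1 other member. Grouped around shared representatives, 393 members (48.9%) fell into 61 groups, 20 of them with at least 5 members. The 5 largest held 181 members (22.5%) spread over 12 to 18 chromosomes each. They are numbered by size here, because the reference holds no repeat family for them apart from the B1 element discussed below. At 80% identity 271 members had a relative, the 5 largest groups held 101 (12.6%) and the largest held 47.

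Group 1 was the largest, with 82 members on 18 chromosomes and a median identity of 78.9% to its representative, a summit of signal 2.60 in an annotated exon of Tbp, the TATA-binding protein gene. The short CTCF core was in 68 of the 82 windows (82.9%, 73.0 to 90.3%), and RUNX matches were in 36 (43.9%). Group 2, with 35 members around the Acer2 window, held the core in 26 (74.3%). Group 5, with 15 members around the Desi2 window, held it in 14. The representatives of groups 1 and 5 aligned over 76 bases at 86.8% identity on opposite strands, those of groups 1 and 2 over 22 bases and those of groups 2 and 5 over 28. The groups therefore share sequence and are not independent of each other.

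Signals were similar among the groups. Median signals were 10.3 (9.47 to 11.2) in group 1, 10.2 (7.93 to 11.1) in group 2, 11.95 (10.7 to 14.6) in group 3, 10.1 (7.36 to 13.4) in group 4 and 10.9 (9.18 to 16.5) in group 5, beside 10.7 over all members.

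Group 3 had 25 members around the window near Abi1, and 20 of them (80%, 59.3 to 93.2%) held an ETS match. Its strongest member, nearest to Gimap3, had a signal of 29.6 and no ETS match. The strongest with an ETS match, nearest to Mbnl1, had 27.99. Group 4 had 24 members, of which 19 were similar to an element that RefSeq annotates as B1_Mus2 at chr7:103823699-103823836. An AAAACC repeat lay in 12 of the 24, and neither the short CTCF core nor a RUNX match was in any, where 0 of 24 allows up to 14.3%. Over all members, 48 (5.98%) were like the B1 element, against 29 (0.144%) of the other distal peaks.

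The short core lay close to the summit. In the 233 members that held it, its centre was a median of 15.5 bp from the summit and within 50 bp in 93.1%. In the other distal peaks with the core, the median was 20.5 bp. ETS matches lay at a median of 25.5 bp in members and 26.5 bp in the others, and RUNX matches at 32.5 and 31.5 bp. AP-1 matches lay farther out in members, at 47.5 bp against 33.5 bp. So did the forkhead matches, at 72 bp against 48.5 bp, in only 24 member windows with quartiles of 36.75 and 81.75 bp.

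Only a small share of each group's relatives in the genome held a distal summit of the list. Copies without one are not shown to be closed, because the treatment of reads that align to several places is not given. The representative of group 1 had 119503 other distal copies at the same alignment limits, and a distal summit fell inside 58 of them (0.0485%, 0.0369 to 0.0627%). For group 4 it was 9 of 144666 (0.00622%). The shares were higher for group 2, with 16 of 4643 (0.345%), group 3, with 23 of 10830 (0.212%), and group 5, with 56 of 7448 (0.752%, 0.568 to 0.975%). The copies at a summit are mostly member peaks, for example 57 of 58 in group 1. An E-value limit is stricter against the whole genome than among member windows, and the summit had to lie inside the alignment. Group 1 had 57 copies at a member summit for its 82 members, and group 2 had 13 for 35. Group 5 had 54 for 15 members, so most of these copies lie at members outside group 5. Groups 1 and 5 can therefore count the same peaks.

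Copies at a summit held the leading motif more often than other copies of the same sequence. The copies taken were those aligned across the motif's place in the representative, and a match anywhere in the aligned part counted. For group 1 the short core was in 48 of 55 copies at a summit (87.3%, 75.5 to 94.7%) and 50.9% of 95404 elsewhere. The values were 13 of 16 (81.3%) and 38.6% for group 2, and 53 of 56 (94.6%, 85.1 to 98.9%) and 55.5% for group 5. For the ETS site of group 3 they were 18 of 23 (78.3%, 56.3 to 92.5%) and 55.9%, the smallest difference, and the interval of the first (from 56.3%) overlapped that of the second (to 56.9%). Read the other way, 0.0988% of group 1 copies with the core were at a summit and 0.0149% of those without it. In group 5 it was 1.28% and 0.0910%. Each of these motifs was picked as the most frequent in the group's members, and copies at a summit are mostly members. The core was also chosen after seeing members of group 1. The values, that of ETS included, therefore describe the motifs and do not test them. Those of groups 1 and 5 are not separate observations.

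**Figure D3:**
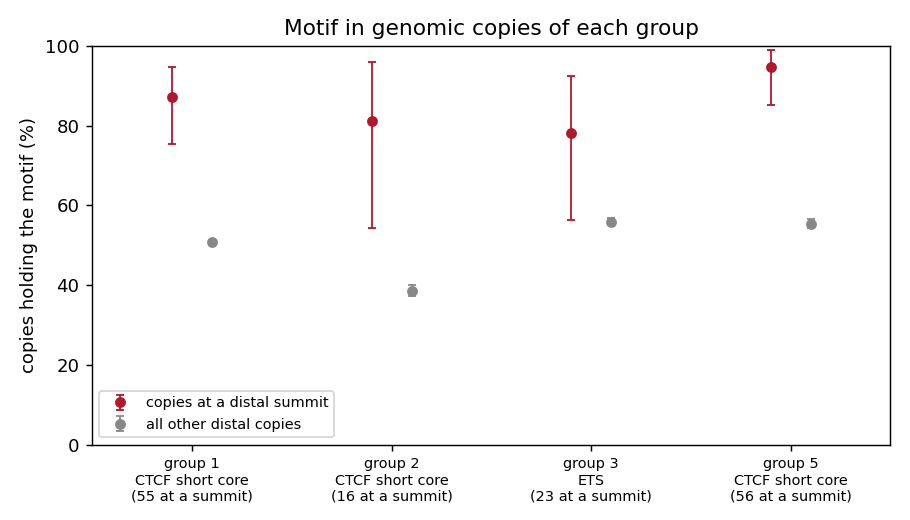
Share of genomic copies of each group's representative that hold its leading motif, with exact 95% intervals, for copies with a distal summit inside them and for other distal copies. Only copies aligned across the motif's place in the representative are counted. Group 4 is left out because its representative holds no match to the motif most frequent in that group. The copies at a summit lie higher in all 4 groups, from 78.3% in group 3 to 94.6% in group 5. Groups 1 and 5 can count the same peaks, so their values are not separate observations.

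Decay of the copies was set beside this by comparing copies of like identity to the representative. Here copies not aligned across the place of the core were counted too, and these can lack it for that reason. In group 1, 55 of 58 copies at a summit but only 95404 of 119445 elsewhere were aligned across it. The part of this in the group 1 shares was not tested. In group 5 it was 56 of 56 and 7391 of 7392. In group 1 the core was in 81.8% of 33 copies at a summit and 22.4% of the others at 70 to 80% identity, and in 81.0% of 21 and 37.3% at 80 to 85%. Copies of group 5 at a summit can be the same peaks as those of group 1. In group 5 the core was in 12 of 12, 28 of 31 and 13 of 13 copies at a summit in 3 classes of identity. Elsewhere the shares were 41.5%, 51.4% and 67.7%. RUNX matches showed no such common direction. In group 1 they were in 48.5% (30.8 to 66.5%) of copies at a summit and 27.6% elsewhere at 70 to 80% identity, but in 61.9% (38.4 to 81.9%) and 64.8% at 80 to 85%. In group 5 they were in 2 of 12, 16 of 31 and 4 of 13 copies at a summit, against 39.5%, 54.4% and 70.1% elsewhere.

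Over all members, ETS and RUNX matches were about as common as at other distal peaks, while AP-1 and NF-kB matches were less common. Forkhead, NFAT and TCF/LEF shares were also lower in members, but their intervals overlapped those of the other distal peaks. ETS matches (AGGAAGT or CGGAAGT) were in 184 members (22.9%, 20.1 to 26.0%) and 24.2% of the others, against 6.23% of the members' flanks and 4.55% of masked grid windows. RUNX matches (TGTGGTT) were in 116 (14.5%, 12.1 to 17.1%) and 12.1%, against 5.42% and 5.49%. Outside group 1 the RUNX share of members was 11.1%, and in the 57 members over 90% lower case it was 35.1%. Members with an ETS match had a median signal of 11.6 and those without one 10.4. For RUNX the medians were 11.7 and 10.5.

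CTCF matches depended on the pattern searched. The longer consensus was in 21 members (2.62%, 1.63 to 3.97%) and 9.24% (8.84 to 9.65%) of other distal peaks. It was in 0.125% of the members' flanks and 0.0552% of masked grid windows. The short core was in 233 members (29.02%, 25.9 to 32.3%), 15.8% (15.3 to 16.3%) of other distal peaks and 4.38% of masked grid windows. Both patterns can match the same bases, and 10 of the 21 members with the consensus held the core too. Groups 1, 2 and 5 supplied 108 of the 233 members with the core, and 4 of their 132 members held the consensus. In the remaining 671 members the core was in 18.6% (15.8 to 21.8%). Among members of at least the median −log10 p of all peaks, the consensus was in 1.15%. The core is short, and a match to either pattern is not a measurement of CTCF binding.

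AP-1 (TGANTCA) was in 9.59% (7.64 to 11.8%) of members, 13.1% of other distal peaks and 4.08% of masked grid windows. NF-kB, searched by its consensus, was in 4.61%, 6.71% and 1.24%, and forkhead (TGTTTAC) in 2.99%, 3.85% and 2.11%. NFAT (TGGAAAA) was in 2.74% (1.73 to 4.12%) of members, 4.24% (3.97 to 4.53%) of other distal peaks and 7.10% of masked grid windows. TCF/LEF (CTTTGAA or CTTTGAT) was in 7.97% (6.19 to 10.06%), 10.2% (9.78 to 10.6%) and 8.94%. NFAT and TCF/LEF were named after their values were seen. Leaving out the short CTCF core, which was added later and had a ratio of 1.84, the highest ratios of members to other distal peaks were for YY1 (AAGATGGC), at 2.86% and 1.41%, T-box (AGGTGTGA), at 1.74% and 1.08%, the POU octamer (ATTTGCAT), at 2.49% and 1.73%, IRF (GAAANNGAA), at 13.1% and 10.3%, and RUNX. YY1, POU and IRF were also common in masked grid windows, at 3.33%, 2.39% and 9.49%.

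The 5 lowest ratios included that of the CTCF consensus. NRF1 (GCGCATGCG) was in 0 of 803 members, which allows up to 0.458%, and in 0.244% of the others. The B box of RNA polymerase III genes (GGTTCGA) was in 0 and 0.368%, and CREB (TGACGTCA) in 1 member (0.125%) and 0.845%. After CTCF, the E-box CAGCTG was next, at 7.47% (5.75 to 9.51%) and 13.6%. All motifs were searched on both strands, and overlaps between different motifs were not removed. At least 1 match to ETS, RUNX, AP-1 or either CTCF pattern was present in 61.1% (57.7 to 64.5%) of members, 57.5% of other distal peaks and 16.9% of masked grid windows.

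**Figure D4:**
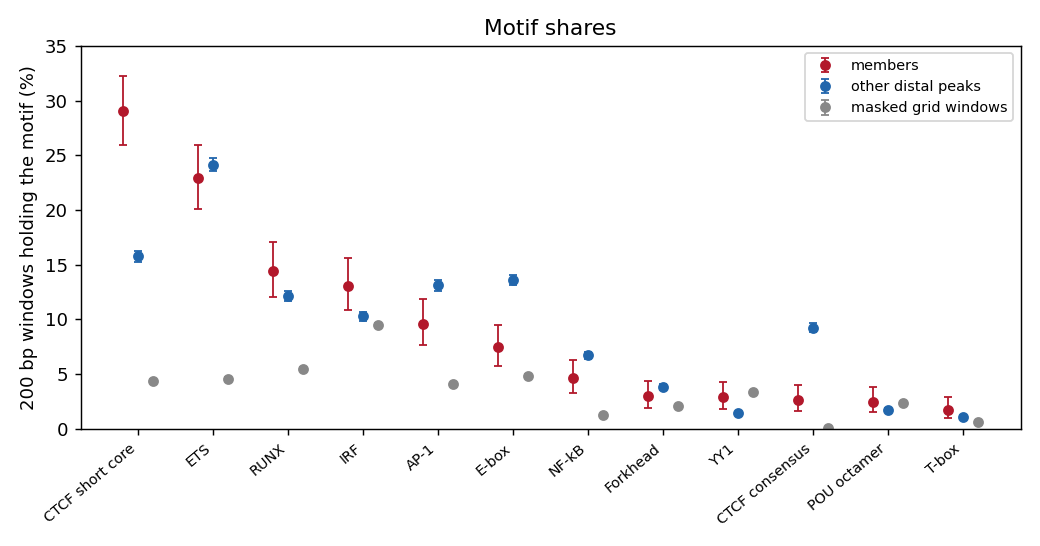
Share of 200 bp windows that hold each motif, with exact 95% intervals, in the members, the other distal peaks and masked windows of the distal grid. ETS and RUNX matches are near 23% and 14% in members, well above the grid, and the CTCF patterns lie on opposite sides of the other distal peaks.

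Simple tandem repeats formed a second kind of member. An exact repeat of a unit of 1 to 6 bases over at least 20 bases, with units pooled over rotations and strands, was in 132 members (16.4%, 13.9 to 19.2%), against 2.93% of other distal peaks and 11.7% of masked grid windows. At 30 bases or more, 68 members remained. Among the 153 members with at least 90% of words found once, the share was 3.92%, where a repeat itself lowers the number of such words. AC was the most frequent unit, in 41 members, then AAAACC in 23, AG in 18 and A in 15.

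AAAACC stood out by its rarity elsewhere. It was in 2.86% of members, 0.159% of other distal peaks and 0.0283% of masked grid windows. Of all 1868 distal AAAACC loci in the genome, 59 had a distal summit within 100 bp of their middle (3.16%, 2.41 to 4.06%). This was the highest share of 82 units with at least 300 distal loci. The next were AAAGAG, with 9 of 955 (0.942%, 0.432 to 1.78%), and C, with 10 of 1195 (0.837%). AC repeats were at a summit in 265 of 266098 loci (0.0996%), AG in 0.0942% and A in 0.175%.

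**Figure D5:**
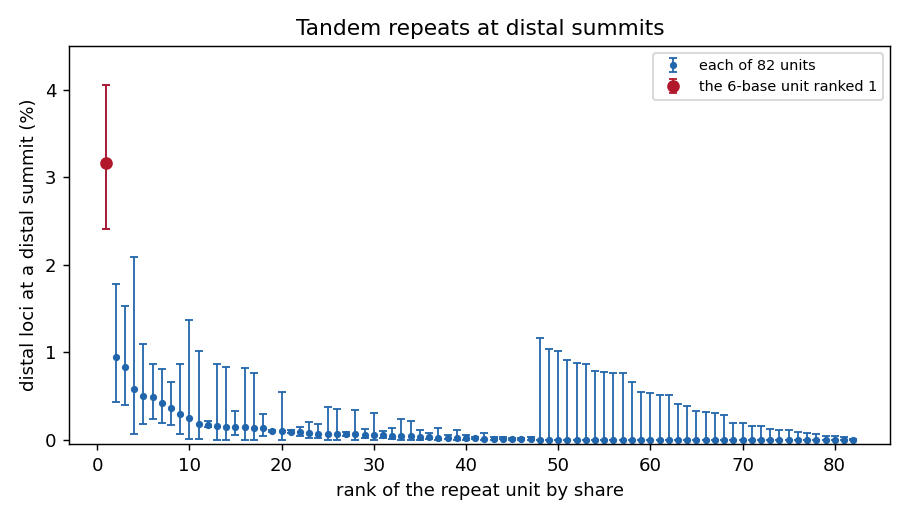
Share of distal loci of each tandem repeat unit that have a distal summit within 100 bp of the middle of the locus, with exact 95% intervals, for 82 units ranked by that share. The unit ranked 1, at 3.16%, is AAAACC, and its interval lies above those of all other units.

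In the 23 members with an AAAACC repeat the summit lay a median of 8 bp from the repeat, at most 68 bp away, and inside it in 6. Their signal ran from 5.09 to 19.8 with a median of 10.2, and the strongest was in an intron of Nemf, a factor of ribosome quality control. The window near Ccne1, the cyclin E1 gene, held the longest repeat, 79 bases, with a signal of 8.82. No CTCF pattern, RUNX or forkhead match was present in any of the 23, and an ETS match was in 1. Of the 23, 9 were like the B1 element. In the genome, 1013 of the 1868 AAAACC loci adjoin B1-like sequence, and 23 of those were at a summit (2.27%, 1.45 to 3.39%). Of the 855 that do not adjoin it, 36 were (4.21%, 2.97 to 5.78%).

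Repeats of the T(n)G kind, with 2 to 5 T before each G, were few. They were in 8 members (0.996%, 0.431 to 1.95%), 0.164% of other distal peaks and 1.36% of masked grid windows. In the genome 50 of 113439 distal loci of these units were at a distal summit (0.0441%, 0.0327 to 0.0581%). The strongest such member, with a signal of 18.8, was in an intron of Erich5.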

How the data were processed

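ATAC-seq of mouse regulatory T cells was analysed from peak lists on mm10. Per the labels both libraries are technical replicates, and the authors deposited lists made from 1 shared alignment. Depth is unknown. No aligner, caller or version is given in the sources used here. The deposited signal is the authors' enrichment ratio per peak, with no stated reference; the deposited −log10 p, −log10 IDR and score were used only to describe, rank or filter. Summits were placed on GRCm38.p6 with GENCODE M21. Its soft masking came with the RefSeq sequence, names no families, may differ from other maskings of mm10, and its tool is not given in the sources used here. Coordinates are 1-based. Python 3.11.15, numpy 2.4.6, pandas 2.3.3, scipy 1.17.1, numba 0.67.0 and blastn 2.17.0 were used. Exact Clopper-Pearson 95% intervals accompany shares, and order-statistic intervals accompany medians. The grid took every 50th distal 200 bp window. A copy of a group was an alignment of at least 80 bases at 70% identity (E-value 1e-10), and it was at a summit when the summit lay inside it. Word counts, repeat search and grouping were tested on simulated data. The 24 motifs, the gene lists and the members were chosen with earlier results of these data known, and the short CTCF core was added after members' sequences were seen. Named regions were the 10 strongest members, the 3 strongest per gene list, group representatives, the strongest with a CTCF, ETS, RUNX or T(n)G match, and the longest tandem repeat; named motifs were CTCF, ETS, RUNX, AP-1, forkhead, NF-kB and those with the 5 highest and 5 lowest ratios. Alternatives changed the peak list, its strength, the masking window and threshold, the TSS rule and uniqueness.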

Additional observations from a re-analysis of the deposited data

How the results depend on the processing

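No paired analysis was possible because the peaks were called on both libraries together and only 1 group exists. All values rest on 1 pooled sample of unknown depth, so counting intervals understate the uncertainty. With the pseudoreplicated list, 5.64% of distal peaks were members, their median signal was 6.21 and 19.01% held an ETS match. Kept to the stronger peaks, with a signal no lower than the list's median, the share was 2.825%, the median signal 16.8, ETS 28.2%, RUNX 18.65% and tandem repeats 13.9%. With at least the median −log10 p, these were 2.32% for the share, 16.8 for the signal, 1.15% for the CTCF consensus, 33.9% for ETS and 12.6% for tandem repeats. With every listed summit, the share was 5.23%, the signal 5.61, introns 50%, CTCF 1.30%, ETS 15.3%, RUNX 11.3% and tandem repeats 19.2%. Over 90% lower case gave 0.2725% of distal peaks, 45.6% in introns, 17.5% with ETS and 35.1% with RUNX. A 100 bp masking window gave a share of 4.49% and CTCF in 1.60%, and a 400 bp window gave 3.58% and 48.8% in introns. Masking over the whole interval gave 3.21%, with 47.5% in introns, CTCF in 4.02% and tandem repeats in 13.7%. Windows with at least 90% of words found once gave 0.813%, with 61.4% in introns, ETS in 19.6% and tandem repeats in 3.92%. The short core, added after the data were seen, moved CTCF to 29.02%. The stricter settings hold fewer peaks, and the other causes were not tested. Protein-coding TSSs only, and a TSS distance of 2.5 kb, kept all 7 values inside their intervals.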
